A study of Bos grunniens and Bos grunniens x Bos taurus with 2 samples.

Results

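The acrosome protein genes described here are *ACRV1* (ENSBGRG00000020380), *ZPBP* (ENSBGRG00000021319) and *SPACA1* (ENSBGRG00000022908), 3 of the 26961 genes in the yak annotation of the deposited count matrices. They were chosen by symbol, and each symbol matched 1 gene. The acrosome is a vesicle that grows from the Golgi apparatus of the round spermatid, flattens over the nucleus as the spermatid elongates, and releases its contents when the sperm meets the egg coat. *ACRV1* encodes SP-10, a protein of the acrosomal matrix. *ZPBP* encodes a zona pellucida binding protein that is needed for a compact acrosome and a normally shaped sperm head, and *SPACA1* encodes a protein of the inner acrosomal membrane that is needed for the acrosome to form.

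The series holds 2 single-cell RNA sequencing libraries of frozen, thawed and dissociated testis. The first came from 1 sexually mature yak (*Bos grunniens*), and the second from a sexually mature cattle-yak (*Bos grunniens* x *Bos taurus*), the hybrid of yak and cattle, which the paper does not describe. In the yak library 60816600 UMIs (unique molecular identifiers, 1 for each captured RNA molecule) came from 11991 cells, and in the cattle-yak library 43774841 UMIs came from 8930 cells. Although the labels name germ cells, germ-like clusters held 1735 of the 11114 yak cells and 325 of the 7620 cattle-yak cells that passed the mitochondrial limit of 30%. With 1 library per group there was no replicate and no test between groups, and the 95% intervals below are exact intervals that hold counting error only.

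The yak germ cells were viewed in several ways. The first was the study's own list of 1127 cells by barcode, with spermatogonial stem cells (SSC), spermatogonia (SPG), early and late spermatocytes (Early-SPC, Late-SPC) and spermatids (SPT). The second was a set of 411 deep germ cells, so called because they lay above the depth limits of 21212 UMIs or 3637 genes per cell, that is above the mean plus 2 SD of the library. The paper kept only cells within 2 SD of the mean as of high quality, so its limits left such cells out. These cells were clustered without the acrosome genes and named from germ cell markers. Beside them stood the T/NK-like cells, lymphocytes in which acrosome genes should be silent, as a measure of the background. The deep cells held 77.7% of all *ACRV1* counts in the yak library, 84.3% of the *ZPBP* counts and 80.8% of the *SPACA1* counts, whereas the typed cells held 4.09%, 5.79% and 5.31%. Another 267 germ-like cells within the limits that the study's list does not hold carried 469 *ACRV1*, 332 *ZPBP* and 337 *SPACA1* counts, against 203, 457 and 185 in all typed cells together.

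In the typed cells, *ZPBP* was highest in late spermatocytes, whereas *ACRV1* and *SPACA1* were highest in spermatids. The study named *ZPBP* among its markers of spermatocytes and spermatids, and *ACRV1* among its markers of spermatids, so their levels in those types describe the typing as much as the cells. *SPACA1* was not among those markers. The clusters and the types both rest on 1 animal.

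*ZPBP* stood at 19.6 CPM (UMI counts of a gene per 1000000 UMIs of a group, from summed counts) in SSC, with 3 counts in 84 cells, and at 42.0 CPM (27.4 to 61.6) in 486 SPG. It reached 126 CPM (88.5 to 175) in 72 Early-SPC, with 36 counts, and 621 CPM (553 to 696) in 261 Late-SPC, with 296 counts. In 224 SPT it stood at 353 CPM (286 to 432), with 96 counts. The level in T/NK-like cells was 18.2 CPM (15.3 to 21.4), which lay inside the interval of SSC. SPG lay above it in CPM, but per 100 cells SPG held 5.35 counts, within the 3.48 to 6.60 of the 7 named classes outside the germ line, and an unnamed cluster of 697 yak cells of like depth (median 995 UMIs, against 979.5 in SPG) stood at 42.9 CPM (30.2 to 59.1). The level of SPG was therefore read as background, and those of Early-SPC, Late-SPC and SPT lay above both. Late-SPC lay 4.92-fold above Early-SPC.

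*SPACA1* had 2 counts in SSC, 10 in SPG and 0 in Early-SPC, where 0 counts allow up to 10.5 CPM. It stood at 88.2 CPM (63.6 to 119) in Late-SPC, from 42 counts, and at 482 CPM (403 to 572) in SPT, from 131 counts. The T/NK-like level was 6.77 CPM (5.08 to 8.83), so Late-SPC lay above it by a log2 ratio of 3.70 and SPT by 6.15. *ACRV1* had 2 counts in SSC, 14 in SPG and 2 in Early-SPC, and its intervals in all 3 types held the T/NK-like level of 18.6 CPM (15.7 to 21.8). It stood at 56.7 CPM (37.4 to 82.5) in Late-SPC, from 27 counts, and at 582 CPM (495 to 679.8) in SPT, from 158 counts, which lay above T/NK-like cells by log2 ratios of 1.61 and 4.97.

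**Figure D1:**
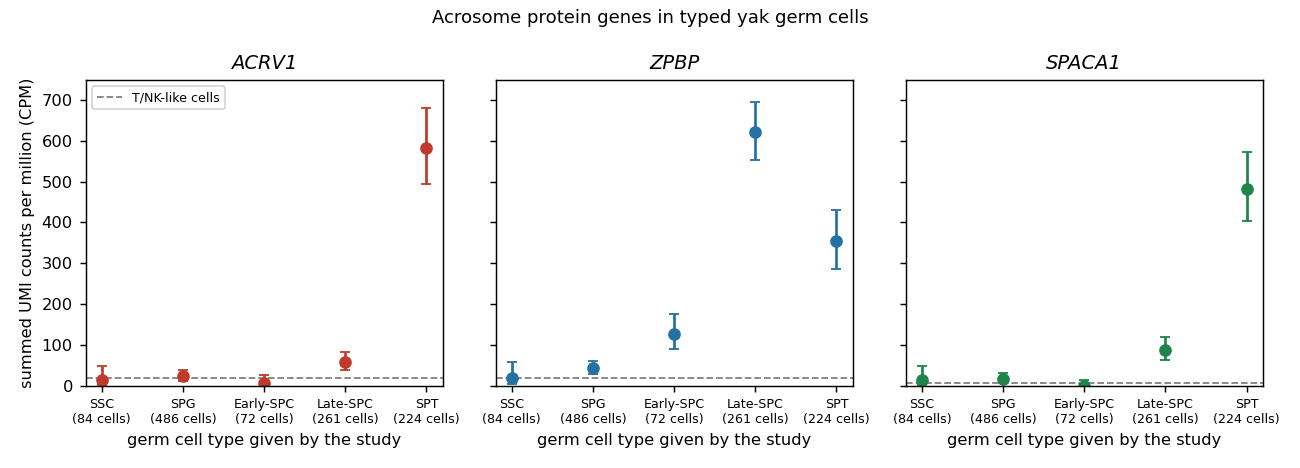
Level of each gene in CPM, from summed counts, in the 5 germ cell types of the study (points, with exact 95% Poisson intervals as bars) and in T/NK-like cells (dashed line). *ZPBP* peaks at 621 CPM in Late-SPC, and *ACRV1* and *SPACA1* peak at 582 and 482 CPM in SPT.

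The log2 ratio of Late-SPC to SPT put the 3 genes in an order. It was 0.81 (0.48 to 1.16) for *ZPBP*, -2.45 (-2.99 to -1.94) for *SPACA1* and -3.36 (-4.01 to -2.76) for *ACRV1*. The ratio of *ZPBP* had the opposite sign to the others, and its interval did not overlap with theirs. *SPACA1* also lay further towards Late-SPC than *ACRV1*, by 0.91 on the log2 scale of the odds (0.09 to 1.74), an interval that only just left out 0. With each cell weighted equally the *ZPBP* ratio fell to 0.37. Over all 2788 genes with at least 50 counts in both types together, 18.3% were at least 1 log2 unit higher in SPT, as *ACRV1* and *SPACA1* were, and 30.4% at least 1 log2 unit higher in Late-SPC.

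Shares of cells with a UMI gave the same peaks. After each cell was thinned to 1000 UMIs, which left out 126 SPT and 97 Late-SPC of lower depth, 36.7% of 98 SPT had a UMI of *ACRV1*, 33.7% one of *SPACA1* and 23.5% one of *ZPBP*. Of 164 Late-SPC, 37.2% had a UMI of *ZPBP*, 10.4% one of *SPACA1* and 4.27% one of *ACRV1*. The same shares among 3489 thinned T/NK-like cells were 1.95% for *ACRV1*, 1.81% for *ZPBP* and 0.688% for *SPACA1*. Without thinning, 36.6% of SPT had a UMI of *ACRV1* and 47.1% of Late-SPC one of *ZPBP*, at median depths of 906 and 1168 UMIs against 1941 in T/NK-like cells (3.83% and 3.72%). The *ACRV1* share of thinned Late-SPC (1.73% to 8.60%) overlapped with that of T/NK-like cells (1.52% to 2.46%).

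The typed cells also carried transcripts of other cell types. The summed level of the 10 listed T/NK markers was 1009 CPM in SPT, with 8 genes detected, against 169 to 716 CPM in the 4 other types. The 6 listed muscle markers, all detected in every type, ran from 527 CPM in Early-SPC to 4358 CPM in SPG. The 8 listed endothelial markers stood at 1881 CPM in SSC, against 77.3 to 415 CPM in the 4 other types. The 11 spermatogonia markers, of which 9 were detected in SSC, stood at 705.5 CPM there, below the 1355 CPM of Early-SPC. The SSC label was therefore not borne out by these markers. In SPG the spermatogonia markers, all 11 detected, summed to 1907 CPM, above the 60.9 to 1355 CPM of the 4 other types. Their sum lay below that of the muscle markers, but sums of different lists do not decide a label. Transcripts of other cell types were thus present beside the spermatogonia markers. The part of these transcripts in the member levels was not tested, and subtracting the T/NK-like level moved none of the ratios of Late-SPC to SPT out of its interval.

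The deep germ cells resolved the order of the genes further. Of 14 sub-clusters, 13 met a naming rule and 20 cells remained unnamed, with endothelial genes in the lead. The named ones were numbered along marker genes: spermatogonia-like SG1 to SG3 by falling *PIWIL4*, early spermatocyte-like ES1 to ES4 by falling spermatogonia markers, late spermatocyte-like LS1 to LS3, the single round spermatid-like sub-cluster and elongating spermatid-like EL1 and EL2 by rising *HMGB4*, a spermatid chromatin gene. *HMGB4* rose from 3.92 CPM in LS1 over 27.6 CPM in LS2 and 258 CPM in LS3 to 2199 CPM in round spermatid-like cells, 3865 CPM in EL1 and 4402 CPM in EL2. *TNP1*, the transition protein that packs spermatid DNA, stood at 234 CPM in round spermatid-like cells and 1008 CPM in EL2. ES4 carried an early name from 10 of 19 markers, but its late spermatocyte markers summed to 7768 CPM, above its early ones at 4046 CPM and above LS1 to LS3 (5004 to 6484 CPM), and 2 of its 10 leading genes were late markers and 0 were early ones. No stage is therefore read from the name of ES4. ES3 also held late markers, at 4615 CPM beside 6578 CPM of early ones. EL1 and EL2 carried an elongating name, but their round spermatid markers summed to 10773 and 12716 CPM. These sums lay above their elongating markers, at 7133 and 8660 CPM, and above the 6925 CPM of round markers in round spermatid-like cells. The names round and elongating are therefore used as cluster names, and no stage is read from them. LS1, LS2 and LS3 were named from 3 enriched markers each, of 8 listed, and 4 of 5 lymphatic endothelial markers were enriched in round spermatid-like cells beside 11 of 15 round spermatid markers.

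*ZPBP* appeared first. It stood at 24.2 to 37.8 CPM in the 3 spermatogonia-like sub-clusters and at 37.6 CPM (20.5 to 63.0) in ES1. It then reached 64.9 CPM (47.7 to 86.3) in ES2, 345 CPM (289 to 409) in ES3 and 589 CPM (539.6 to 641) in ES4, and every cell of ES3 and ES4 had a UMI. The highest level was 1069 CPM (1031 to 1108) in LS1, followed by 1033 CPM (965 to 1104) in LS2, and these neighbours did not differ beyond counting error. Each of the 49 cells of LS1 had between 17 and 162 UMIs of *ZPBP*, with a median of 52. The level was lower from LS3 on, at 885 CPM (824 to 949), 634 CPM (586 to 686) in round spermatid-like cells and 648 CPM (567 to 737) in EL1, and fell to 169 CPM (147 to 193) in EL2. In EL2, 7 of 34 cells had no UMI of *ZPBP*, and the highest had 24. The interval of EL2 lay below those of ES3 to EL1.

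*SPACA1* rose in LS2. It was at 10.8 CPM or below in SG1 to ES2, and with 0 counts in ES1, where up to 8.05 CPM are allowed. LS1 held 20 counts in 49 cells, or 7.13 CPM, while LS2 held 110 counts in 23 cells, or 132 CPM (108 to 159), with at least 1 UMI in every cell. It stood at 351 CPM (314 to 393) in LS3, 753 CPM (700.5 to 809) in round spermatid-like cells and 1142 CPM (1033 to 1258) in EL1, and at 911 CPM (859 to 965) in EL2. All cells of LS3, EL1 and EL2 and all round spermatid-like cells had a UMI, with 3 to 131 per cell. A smaller and earlier level appeared in ES3, where 10 of 14 cells held 18 counts, or 46.7 CPM (27.7 to 73.9). This was above ES2, at 8.28 CPM (3.04 to 18.0), and ES4, at 4.43 CPM (1.21 to 11.4). ES3 was singled out after its values were seen, and it held 1 count of *ACRV1* and, of 7 listed Sertoli and 8 listed elongating spermatid markers, 0 and 4 genes.

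*ACRV1* rose in LS2 as well. It stood at 2.60 to 5.54 CPM in every sub-cluster up to LS1, where 5 of 49 cells held its 15 counts, 10 of them in 1 cell. These levels lay within or below the range of the named classes outside the germ line of the same library, which was 4.85 to 18.6 CPM. It reached 114 CPM (92.2 to 139) in LS2 and 647 CPM (595 to 702) in LS3. The log2 ratio of LS1 to LS2 was -4.41 (-5.31 to -3.62) for *ACRV1* and -4.21 (-4.98 to -3.51) for *SPACA1*, with overlapping intervals. *ACRV1* then stood at 1188 CPM (1121 to 1257) in round spermatid-like cells, 1217 CPM (1105 to 1337) in EL1 and 1199 CPM (1139 to 1261) in EL2, 3 levels with overlapping intervals. Every cell of LS3, EL1 and EL2 and every round spermatid-like cell had at least 7 UMIs of *ACRV1*, and 1 had 149.

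**Figure D2:**
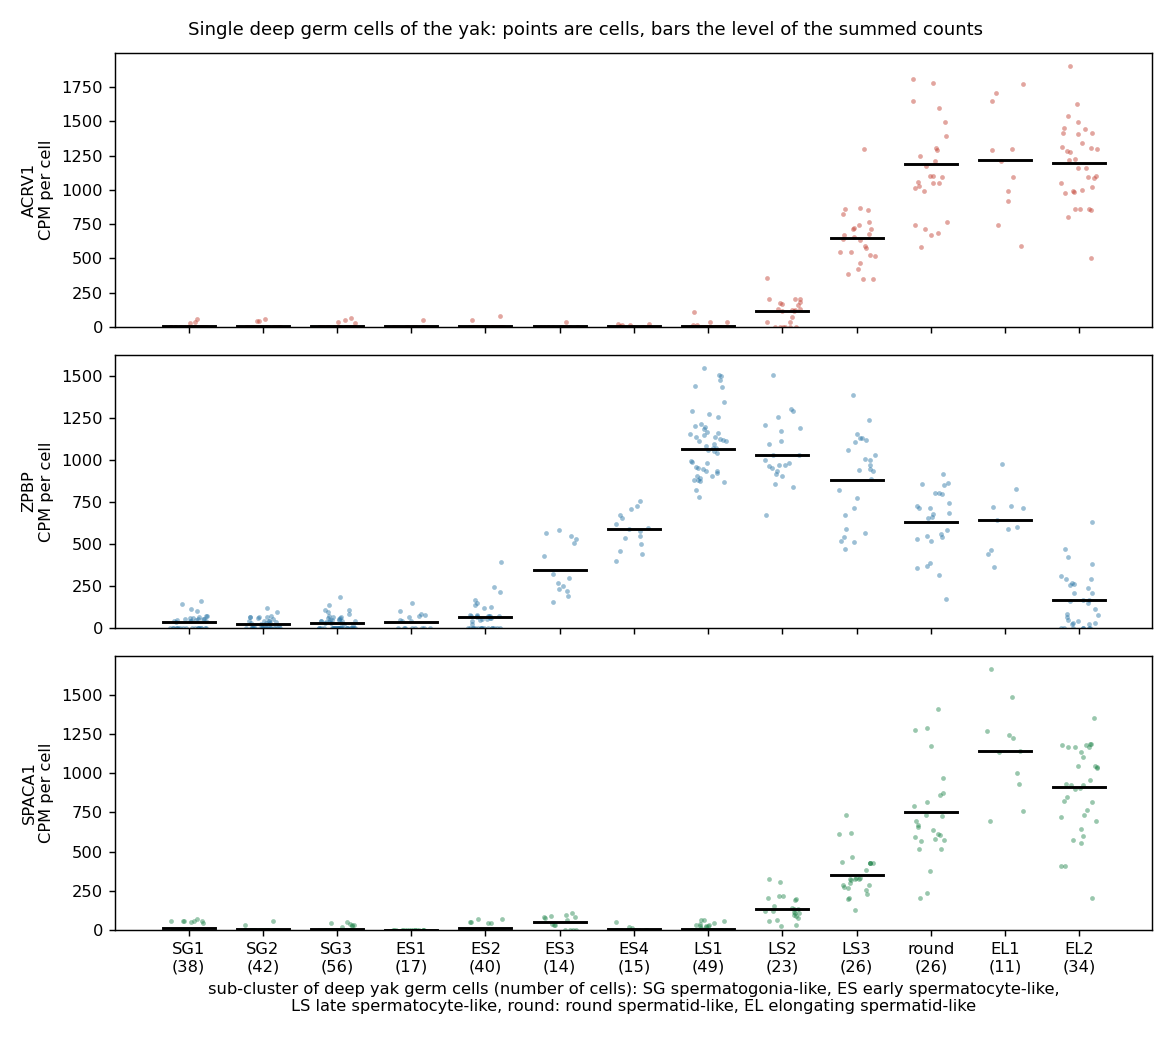
CPM of each gene in single deep germ cells of the yak (points) and from the summed counts of each sub-cluster (black bars), with the number of cells below. *ZPBP* is highest in LS1 at 1069 CPM, while *SPACA1* and *ACRV1* stay at 7.13 and 5.35 CPM there and reach 1142 and 1217 CPM in EL1.

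**Figure D3:**
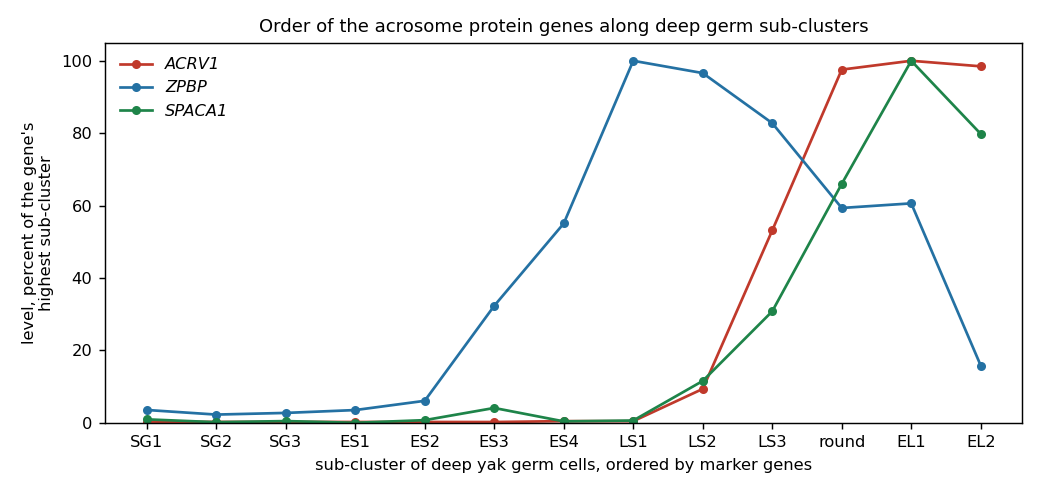
The same summed levels as a percent of each gene's highest sub-cluster, along the sub-clusters ordered by marker genes. *ZPBP* is highest in LS1, where *ACRV1* and *SPACA1* stand at 5.35 and 7.13 CPM, *SPACA1* has a small earlier level in ES3, and all 3 genes are present from LS2 to EL1.

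Between LS2 and LS3 the genes differed to unequal degrees. The log2 ratio of LS2 to LS3 was -2.50 (-2.83 to -2.19) for *ACRV1*, -1.41 (-1.74 to -1.10) for *SPACA1* and 0.22 (0.08 to 0.36) for *ZPBP*. *SPACA1* lay further towards LS2 than *ACRV1* by 1.09 on the log2 scale of the odds (0.63 to 1.55). Between round spermatid-like cells and EL2 the balance turned. The log2 odds of *SPACA1* against *ACRV1* in round spermatid-like cells over EL2 were -0.26 (-0.44 to -0.09), so that *SPACA1* lay further towards EL2. This was not a steady shift, because *SPACA1* was highest in EL1, between the 2 in the order. The log2 ratio of *SPACA1* was -0.60 (-0.78 to -0.42) for round spermatid-like cells to EL1 and 0.33 (0.16 to 0.49) for EL1 to EL2. Between late spermatocyte-like and round spermatid-like cells as whole classes, *ACRV1* was 7.84-fold and *SPACA1* 7.70-fold higher in the latter, and *ZPBP* 1.62-fold lower. A log2 ratio of at least 1 towards round spermatid-like cells was found for 22.3% of 7024 genes, and one of at least 1 in the other direction for 32.3%. Between round and elongating spermatid-like cells, *ACRV1* did not differ beyond counting error (log2 ratio -0.02, -0.12 to 0.09). *SPACA1* was 1.28-fold higher and *ZPBP* 2.31-fold lower in elongating spermatid-like cells. At a finer clustering (resolution 2) no deep cells were named round spermatid-like, so these values depend on the clustering used. They compare clusters, since no stage is read from the names round and elongating.

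Markers of other cell types also varied over these sub-clusters. The 5 lymphatic endothelial markers summed to 4.80 to 145 CPM, with the highest value in round spermatid-like cells, and stood at 104 CPM in EL2 and 123 CPM in EL1. The 7 Sertoli markers ran from 0 to 191 CPM, highest in LS1, the 10 T/NK markers from 20.8 to 207 CPM, and the 6 muscle markers from 70.9 to 990.1 CPM, highest in SG2. The 3 epithelial markers ran from 43.8 to 732 CPM and were highest in ES3, where the early *SPACA1* level was found and where 2 of them were detected. The part of the epithelial markers in that level was not tested. The members stood at 1.40 to 9.32 CPM in endothelial-like and lymphatic endothelial-like cells of the same library, and at 634 to 1188 CPM in round spermatid-like cells. The part of the lymphatic endothelial markers in the levels of round spermatid-like cells was not tested.

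Single deep cells showed which genes were detected together. In LS1, 33 of 49 cells (67.3%) had *ZPBP* and neither of the other genes, and 1 cell had all 3. In LS2 all 3 genes were found in 17 of 23 cells, and the other 6 cells had *ZPBP* and *SPACA1* without *ACRV1*. In LS3, in round spermatid-like cells and in EL1 all 3 were found in each of 26, 26 and 11 cells. In EL2, 27 of 34 cells (79.4%) had all 3, and the other 7 had *ACRV1* and *SPACA1* without *ZPBP*. In ES3, 9 of 14 cells had *ZPBP* and *SPACA1* without *ACRV1*, and 4 had *ZPBP* alone, so that the pair was also found ahead of LS1 in the order of the sub-clusters. When each deep cell was thinned to 10000 UMIs, 45 cells of LS1 had *ZPBP* alone, 6 cells of LS2 still had *SPACA1* without *ACRV1* and 0 the reverse, and 12 cells of EL2 had *ACRV1* without *ZPBP*. Across the class of 98 late spermatocyte-like cells, 44.9% (34.8% to 55.3%) had all 3 genes, against 37.8% after thinning. No doublets were removed from these deep cells, and their part in the joint detection was not tested.

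The makeup of the member counts linked the typed cells to the deep ones. Of 385 member counts in SPT, 41.0% were *ACRV1*, 24.9% *ZPBP* and 34.0% *SPACA1*. The matching shares in round spermatid-like cells were 46.1%, 24.6% and 29.3%, those in EL1 40.5%, 21.5% and 38.0%, and those in EL2 52.6%, 7.41% and 40.0%. The makeup of SPT was thus near that of both round spermatid-like cells and EL1. Of 365 member counts in Late-SPC, 7.40% were *ACRV1* and 81.1% *ZPBP*, beside 11.9% and 80.5% in the late spermatocyte-like class. That class pools unlike sub-clusters, with 0.49% and 98.8% in LS1, 8.91% and 80.8% in LS2 and 34.3% and 47.0% in LS3. Late-SPC was nearest to LS2 in makeup, though a mixture of sub-clusters can give the same shares. In T/NK-like cells, 42.7% of 347 member counts were *ACRV1*, 41.8% *ZPBP* and 15.6% *SPACA1*. Over the 7 named yak cell classes outside the germ line, counts per 100 cells ran from 3.25 to 7.23 for *ACRV1*, from 3.48 to 6.60 for *ZPBP* and from 0.766 to 3.20 for *SPACA1*, a low level in each class, which was read as background. Deep spermatogonia-like cells held 67.6 counts of *ZPBP* per 100 cells, at a median of 20756 UMIs per cell. Its level of 29.5 CPM lay above the 4.43 to 18.2 CPM of those 7 classes, but below the 42.9 CPM of the unnamed cluster of 697 shallow cells. That cluster held 5.31 counts per 100 cells at a median of 995 UMIs, so it is no background of like depth. Pericyte-like cells, the deepest of the 7 classes at a median of 13175.5 UMIs, held 6.60 counts per 100 cells, or 4.43 CPM.

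The genes whose pattern was most like each member were named by Pearson's r of log counts per 10000 over the 411 deep cells, among 10537 genes with a UMI in at least 10% of them. The cells share 1 library and their depth, so r is a description. For *ACRV1* the leading genes were *TMEM210* (r = 0.982), ENSBGRG00000008394 (0.977), *C8orf74* (0.974), *AIF1* (0.974) and ENSBGRG00000010860 (0.973), and *SPACA1* ranked 17 with 0.963. For *SPACA1* they were ENSBGRG00000008394 (0.969), *TMEM210* (0.966), ENSBGRG00000010860 (0.965), *ACRV1* (0.963) and *C8orf74* (0.961). For *ZPBP* they were *FAM216A* (0.930), *LCA5L* (0.920), ENSBGRG00000016699 (0.917), ENSBGRG00000021328 (0.913) and *SHCBP1L* (0.911), while *SPACA1* (0.354) and *ACRV1* (0.336) ranked 2009 and 2103. *TMEM210* stood at 147, 1314 and 1317 CPM in late spermatocyte-like, round and elongating spermatid-like cells, beside 151, 1188 and 1203 CPM for *ACRV1*. *FAM216A* stood at 1374, 612 and 260.2 CPM in the same classes, beside 1026, 634 and 274 CPM for *ZPBP*.

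The wider set of acrosome genes was taken from a list of 59 symbols, of which 36 were in the annotation. Among the typed cells, 24 of the 36 had at least 50 counts. Of these, 13 were highest in SPT, against 17% of all 5250 genes with as many counts, 7 in Late-SPC (24.7% of all genes), 3 in Early-SPC (26.7%) and 1 in SPG (16.2%). With at least 100 counts asked for, 6 of 16 were highest in SPT, against 14.8% of all genes, and 7 in Late-SPC, against 26.9%. The genes with the highest level in SPT were *TMEM190* (1340.1 CPM), *FAM71E1* (891 CPM) and *IZUMO2* (792 CPM), a member of the family of the sperm-egg fusion protein IZUMO1. Those of Late-SPC were *DKKL1* (3855 CPM), which encodes an acrosomal protein, *IZUMO4* (1596 CPM) and *SPATA16* (695 CPM), needed for the acrosome to form and also among the study's spermatocyte markers. Those of Early-SPC were *TMF1* (583 CPM), *GOPC* (253 CPM), which encodes a Golgi protein, and *SMAP2* (102 CPM), and the gene highest in SPG was *CSNK2A2* (126 CPM). The median log2 ratio of SPT to Late-SPC was 2.07 over the 22 list genes with enough counts in these types, against -0.40 over all genes.

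In the deep cells, 33 of the 36 had at least 50 counts. Elongating spermatid-like cells held the highest level of 16 (16% of all 10428 genes), round spermatid-like cells of 7 (12.1%) and late spermatocyte-like cells of 8 (21.4%), with *ACRV1* and *SPACA1* among the first and *ZPBP* among the last. For *ACRV1* the round class, at 1188 CPM, did not differ from the elongating class, at 1203 CPM, beyond counting error. The elongating class was also the highest in round spermatid markers, at 12288 CPM against 6925 CPM in the round class. *ZPBP2*, the paralog of *ZPBP*, shared its class, at 73.3 CPM (65.6 to 81.6) in late spermatocyte-like and 24.1 CPM in elongating spermatid-like cells. The genes with the highest level in elongating spermatid-like cells were *TMEM190* (2946 CPM), *FAM71E1* (2423 CPM) and *PRSS37* (2093 CPM), a protease-like gene of the testis. In round spermatid-like cells they were *LYZL4* (493 CPM), a lysozyme-like gene, *PRSS55* (464 CPM) and *TMF1* (376 CPM), and in late spermatocyte-like cells *DKKL1* (5982 CPM), *IZUMO4* (3039 CPM) and *SPATA16* (1077 CPM). *SMAP2* was highest in early spermatocyte-like cells, a class that includes the 15 cells of ES4, and *CSNK2A2* in spermatogonia-like cells, as in the typed cells for the types of like name. The median log2 ratio of round spermatid-like to late spermatocyte-like cells was 2.21 over 31 list genes, against -0.39 over all genes.

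**Figure D4:**
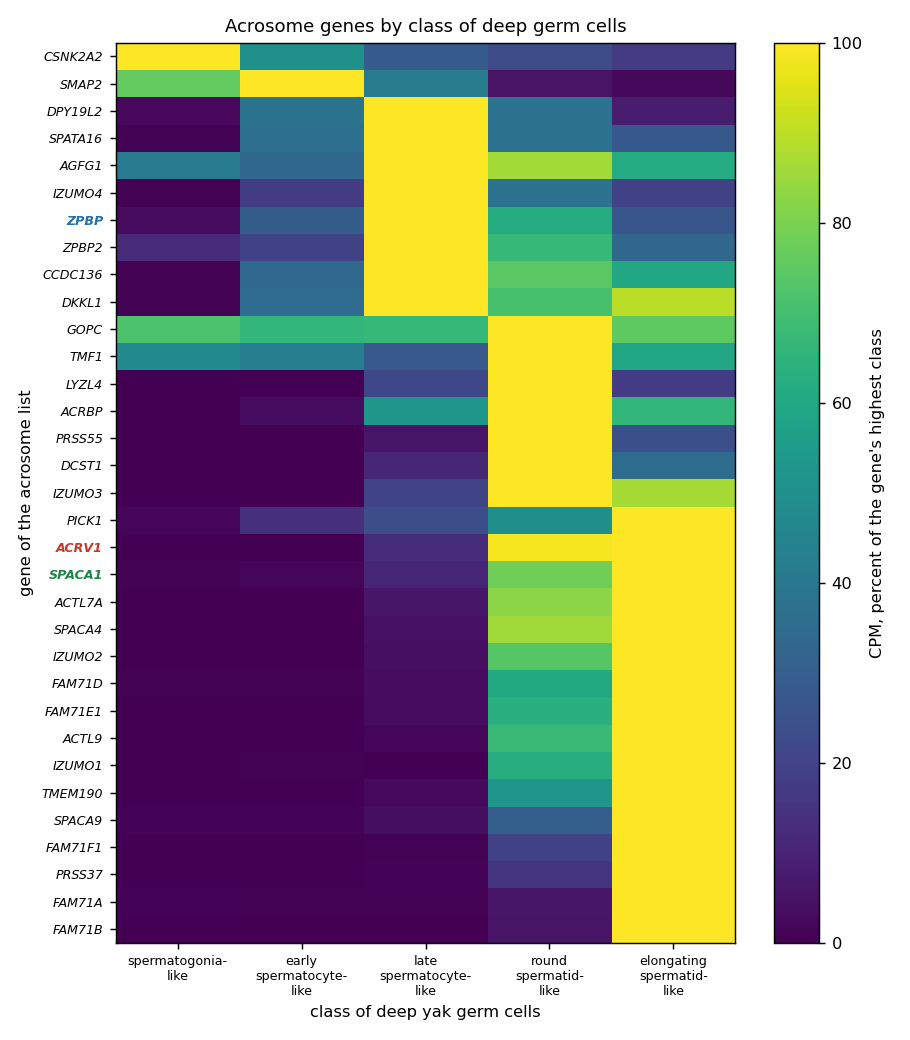
Level of 33 acrosome list genes in 5 classes of deep yak germ cells, each as a percent of the gene's highest class (colour), with genes ordered by that class and the members in colour. *ZPBP* lies among 8 genes highest in late spermatocyte-like cells, and *ACRV1* and *SPACA1* among 16 highest in elongating spermatid-like cells. The level of *ACRV1* in round spermatid-like cells did not differ from that beyond counting error.

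The cattle-yak library lacked most of these transcripts. It held 1 count of *ACRV1*, 363 of *ZPBP* and 44 of *SPACA1*, against 4963, 7888 and 3481 in the yak library. In CPM of the whole library, *ZPBP* was 15.6-fold (14.1 to 17.4) and *SPACA1* 56.9-fold (42.3 to 78.5) higher in the yak. For *ACRV1* the ratio was 3572 (641 to 141126), and its 1 count lay in a cell with a mitochondrial share of 42.6%, which was above the limit and so was given no class. Of 35 list genes with at least 50 counts in both libraries together, 27 were at least 1 log2 unit higher in the yak, against 15.8% of all 15641 genes, and 7 had at most 1 count in the cattle-yak, against 1.79%. Fewer cells of a type and less RNA per cell cannot be told apart in such totals, and the markers *TNP1* and *HMGB4* were at 0 in the 325 germ-like cells of the cattle-yak. These cells formed 2 clusters, 259 spermatogonia-like and 66 early spermatocyte-like cells, and no cluster of spermatids. When they were clustered again on their own, 215 of the 325 cells fell in sub-clusters that could not be named.

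Within these clusters *ZPBP* and *SPACA1* were present and *ACRV1* was not detected. *ACRV1* had 0 counts in both, which allows up to 0.530 CPM in spermatogonia-like and 4.07 CPM in early spermatocyte-like cells. The yak cells of like name stood at 5.60 and 5.14 CPM, below the 18.6 CPM of yak T/NK-like cells, while cattle-yak T/NK-like cells had 0 counts (up to 0.990 CPM). *ZPBP* stood at 17.0 CPM (13.7 to 20.7) in cattle-yak spermatogonia-like cells, from 96 counts, and at 32.8 CPM in those of the yak, a log2 ratio of 0.95 (0.59 to 1.33). The yak class held 781 cells of mixed depth, and the cattle-yak class 259 cells at a median of 22599 UMIs. In the 136 deep yak cells of that name, at a median of 20756 UMIs, *ZPBP* stood at 29.5 CPM. Their log2 ratio to the cattle-yak was 0.80 (0.37 to 1.23). In early spermatocyte-like cells it stood at 219.9 CPM (187 to 256), from 162 counts, and at 346 CPM in the yak, a log2 ratio of 0.66 (0.41 to 0.91). The cattle-yak class mixed stages: 129 of the 162 counts came from 16 of its 66 cells that were late spermatocyte-like when clustered again. The other 50 cells stood at 71.5 CPM (49.2 to 100.4), so the ratio does not compare cells of 1 stage. The yak class was not split in the same way, so the 71.5 CPM have no matching yak value. Deep yak sub-clusters of early name ran from 37.6 CPM in ES1 to 589 CPM in ES4. A log2 ratio of at least 1 towards the yak was found for 6.83% of all genes in the first class and 12.2% in the second, and one of at least 1 towards the cattle-yak for 2.08% and 3.16%. None of these ratios of *ZPBP* reached 1. *SPACA1* stood at 4.95 CPM (3.29 to 7.15) from 28 counts and 14.9 CPM (7.45 to 26.7) from 11 counts, beside 6.16 and 15.0 CPM in the yak. The log2 ratios of 0.32 (-0.46 to 1.10) and 0.01 (-0.98 to 1.12) were not distinguishable from 0 at this depth. The 6.16 CPM of yak spermatogonia-like cells lay near the 6.77 CPM of yak T/NK-like cells, while cattle-yak T/NK-like cells had 0 counts of *SPACA1*. For *ZPBP*, T/NK-like cells held 3.94 counts per 100 cells in the yak and 2.04 in the cattle-yak. This background was not subtracted, so the ratios of *ZPBP* and *SPACA1* include it.

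**Figure D5:**
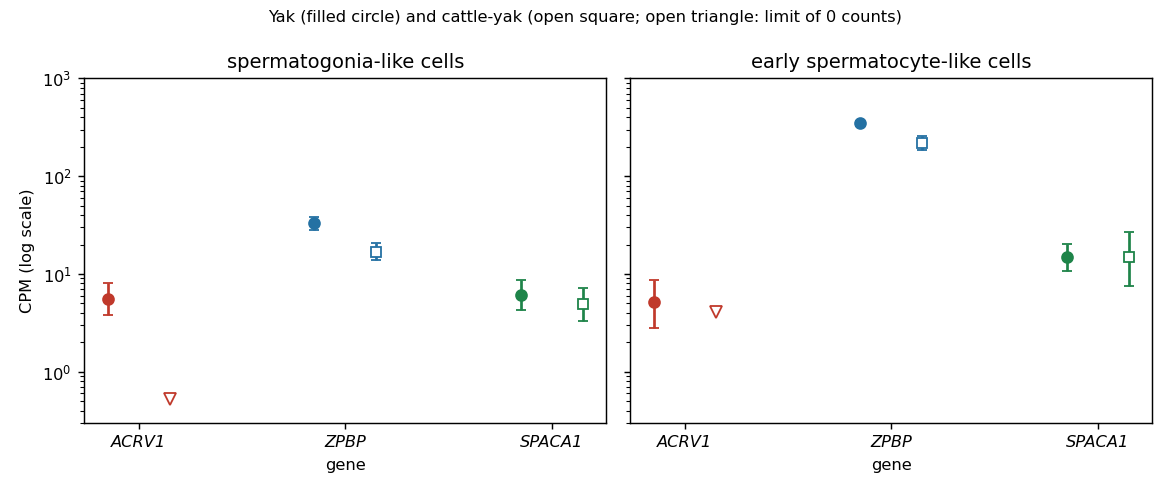
CPM (log axis) with exact 95% intervals in germ-like cells of the yak (filled circles) and the cattle-yak (open squares), with open triangles at the limit that 0 counts allow. *ZPBP* stands at 32.8 against 17.0 CPM and 346 against 219.9 CPM, the *SPACA1* intervals overlap, and *ACRV1* has 0 counts in the cattle-yak. Without 16 late spermatocyte-like cells the 219.9 CPM become 71.5 CPM, while the yak class was not split.

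The cattle-yak *ZPBP* counts were concentrated in few cells. A sub-cluster of 16 cells, late spermatocyte-like by 7 of 8 markers, held 129 counts of *ZPBP*, or 469 CPM (391 to 557), with a UMI in 14 of 16 cells, and 1 count of *SPACA1*. It was the cattle-yak sub-cluster with the highest *ZPBP* level, and it lay below LS1 of the yak, at 1069 CPM, by a log2 ratio of 1.19 (0.94 to 1.46), and below ES4 by 0.33 (0.05 to 0.62). By its markers it was unlike LS1, with early markers at 5526 CPM (LS1 2069 CPM, ES4 4046 CPM), late markers at 4069 CPM and *CCNA1* at 65.4 CPM (LS1 606 CPM, ES4 94.2 CPM). By early and late markers it was nearest to ES3 of the yak, at 6578 and 4615 CPM, where *CCNA1* stood at 33.8 CPM. The *ZPBP* level of ES3, 345 CPM (289 to 409), lay below that of the 16 cells, with overlapping intervals, so the direction depends on the yak sub-cluster taken. *SPACA1* stood at 3.63 CPM (0.09 to 20.2) in the 16 cells, below the 46.7 CPM (27.7 to 73.9) of ES3 and near the 4.43 CPM of ES4. The early *SPACA1* level of ES3 was thus not found in the cattle-yak cells nearest to it by these markers. The sub-clusters were formed separately in each library and may not hold the same stages. Another 36 cells, led by the meiotic genes *RAD51AP2* and *SYCP3*, held 9 counts of *SPACA1* in 8 cells, or 29.5 CPM (13.5 to 55.9), beside 52.4 CPM (29.9 to 85.1) of *ZPBP*. This lay within counting error of the 46.7 CPM of *SPACA1* in ES3 of the yak (log2 ratio of ES3 to it 0.67, -0.56 to 2.00) and above the 8.28 CPM of ES2 (log2 ratio of ES2 to it -1.83, -3.60 to -0.18). By late spermatocyte markers (419 CPM) and *SYCP3* (1241 CPM) the 36 cells were nearer to ES2 (548 and 414 CPM) than to ES3 (4615 and 36.4 CPM). The typed Early-SPC of the yak were nearer still, at 407 and 1787 CPM. Their early markers summed to 10271 CPM, against 8543 CPM in the 36 cells and 4499 CPM in ES2. Early-SPC held 0 counts of *SPACA1* (up to 10.5 CPM) and 126 CPM (88.5 to 175) of *ZPBP*, so they differed from the 36 cells in both genes. Outside the germ line, *ZPBP* stood at 2.04 counts per 100 T/NK-like cells (1.30 to 3.03) and 8.65 per 100 Sertoli-like cells (3.96 to 16.4), and at 0 to 1.01 per 100 cells in the other classes, while *SPACA1* had 0 counts in every class outside the germ line. Cattle-yak spermatogonia-like cells held 37.1 counts of *ZPBP* and 10.8 of *SPACA1* per 100 cells, above those classes. Their median depth was 22599 UMIs per cell, against 1323 in Sertoli-like cells. In CPM their *ZPBP* level of 17.0 lay inside the interval of Sertoli-like cells (31.7 CPM, 14.5 to 60.2). With a mitochondrial limit of 20% in place of 30%, the *ZPBP* level of all cattle-yak germ-like cells rose from 40.3 to 72.3 CPM.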

How the data were processed

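Per the labels and the methods of the paper, testis tissue was frozen, thawed, dissociated and captured with 10x Genomics droplets, with a yak genome as the reference. The deposited files hold raw UMI counts per gene and cell, which the authors made with Cell Ranger and did not normalize. The submitters' processing notes name Cell Ranger 2.1.1 and the file headers 5.0.0, and the paper a further version, so the version is uncertain. Germ cell types came from the study's supplementary list of barcodes. The matrices share 24 barcodes, and cells were kept apart by library.

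Cells with a mitochondrial share of 30% or more were left out (877 yak, 1310 cattle-yak). Clusters (scanpy 1.11.5, igraph 0.11.9, Leiden resolution 1, 2000 variable genes, 30 components, 15 neighbours, seed 0) were made without the members, the acrosome list and mitochondrial genes. A cluster was named from 3 or more markers that were enriched in it (log2 ratio to the rest 1 or more, detected in 10% of its cells or more), and stayed unnamed where markers of another class led it. Counts were summed per group and scaled to CPM over all genes, with exact Poisson intervals, exact conditional intervals for ratios and exact binomial intervals for shares, all at 95%. A count of 0 was given a limit of 3 counts. No cell was removed as a doublet, since Scrublet called 0 yak cells and 251 cattle-yak cells, and its scores served for an alternative only. Intervals and calls were tested on simulated data drawn as summed Poisson counts. These hold no spread between cells or animals, so they check the calculation only. Mitochondrial genes took 13.1% of yak and 22.2% of cattle-yak UMIs, and rRNA features 7.10% and 12.7%.

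Members and lists were chosen with earlier results of these data known. Named were the members, the 5 genes most correlated with each over deep cells, the 3 list genes of highest level in each type or class with at least 50 counts, and genes that check a cell type. Alternatives were other denominators, weights, thinning depths, depth limits, Leiden resolutions of 0.5 and 2, count minimums of 20 and 100 and cells of high Scrublet score left out. No sequence was printed, and no coordinates were given, because no genome or sequence of the build of the files was used here.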

Additional observations from a re-analysis of the deposited data

Results flagged for a closer look

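The cells above the mitochondrial limit entered no comparison, and they held more counts of the members than a count of 0 allows. The 877 yak cells held 42 counts of *ACRV1*, 38 of *ZPBP* and 19 of *SPACA1*, or 22.4 CPM (16.2 to 30.3), 20.3 CPM (14.4 to 27.9) and 10.2 CPM (6.11 to 15.9), and these intervals held the levels of yak T/NK-like cells (18.6, 18.2 and 6.77 CPM). The 1310 cattle-yak cells held 40 counts of *ZPBP*, or 6.91 CPM (4.94 to 9.41), an interval that held the 7.92 CPM of cattle-yak T/NK-like cells, and 5 of *SPACA1*, or 0.864 CPM (0.281 to 2.02), against 0 counts in those cells.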

How the results depend on the processing

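No paired analysis was possible because each group is 1 library. Of 88 alternative values for 28 results, 64 stayed within the main interval or within 1.5 times the main count, 24 moved and 0 changed sign. A change of sign was in practice open only to the log2 ratios of Late-SPC to SPT, since the other results are levels, shares and counts. Some alternatives also changed nothing. Leaving out cells of high Scrublet score returned the same levels in deep late, round and elongating spermatid-like classes. Resolution 0.5 did so in the round and elongating ones. These values are among the 64, so that number overstates how far stability was tested. Without mitochondrial and rRNA features in the denominator, *ACRV1* stood at 699 and *SPACA1* at 579.8 CPM in SPT, *ZPBP* at 724 CPM in Late-SPC and at 53.3 CPM in germ-like cattle-yak cells, where a mitochondrial limit of 20% gave 72.3 CPM. With each cell weighted equally, *ZPBP* stood at 501 CPM in Late-SPC, and the log2 ratios of Late-SPC to SPT were 0.37 for *ZPBP* and -1.91 for *SPACA1*. Thinning to 500 UMIs gave shares of 22.3% (*ACRV1* in SPT), 21.1% (*ZPBP* in Late-SPC) and 17.4% (*SPACA1* in SPT), and no thinning gave 47.1% for *ZPBP* in Late-SPC. Leiden resolution 0.5 gave 913 CPM of *ZPBP* in deep late spermatocyte-like cells, and resolution 2 gave 387 CPM in elongating spermatid-like cells. At resolution 2 no deep cells were named round spermatid-like. The ratios and list counts that set round apart from elongating spermatid-like cells therefore have no counterpart at that resolution. Over all deep germ cells the levels of *ACRV1*, *ZPBP* and *SPACA1* were 289.6, 499 and 211 CPM. They became 323, 562 and 235 CPM with a limit of 20000 UMIs, 303, 518 and 221 CPM without the cells of highest Scrublet score, and 253, 377 and 188 CPM with equal weights. With at least 100 counts, 6 of 16 acrosome list genes were highest in SPT, against 13 of 24 with at least 50 counts, while Late-SPC held 7 in both. Causes of the moves were not tested. *ACRV1* kept 0 counts in cattle-yak germ-like cells at resolutions 0.5 and 2. The alternatives on protein and promoter sequences were not run. Depth limits the values of the typed cells, which rest on 27 to 296 counts per gene in Late-SPC and 96 to 158 in SPT.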
